A study of Mus musculus with 6 samples.

Results

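The genes described here are the *Trim* family of the mouse, taken as every protein-coding gene whose symbol is Trim followed by a number. There were 68 such genes among the 19008 protein-coding genes and 34461 genes of the deposited count table, and *Trim28*, the gene deleted in this study, is one of them. A further *Trim*-named gene of another biotype was not a member. The libraries came from whole ovaries of mice aged 7 months, 3 from control and 3 from *Trim28* cKO females, and the comparison asks how a whole gene family was expressed when one of its members was removed from the somatic cells of the gonad. *Trim28* cKO females carried floxed *Trim28* alleles on both chromosomes (Trim28 flox/flox) together with the *Nr5a1:Cre* transgene, which is active in somatic cells of the gonad. By the study's methods, control mice were either Trim28 flox/flox without the Cre transgene or Trim28 flox/+ with it, so all groups carried a floxed allele, and the labels do not say which control a library came from. Oocytes, blood cells and other cells in which the transgene is not active kept their *Trim28* alleles. The mouse lines were held on a mixed 129SV/C57BL6/J background.

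TRIM proteins share a RING finger that in most members makes them ubiquitin ligases, followed by B-boxes and a coiled coil, and they are sorted into classes by the domain at the other end of the protein. The class of *Trim28* ends in a plant homeodomain (PHD) and a bromodomain and works in the nucleus. TRIM28 is recruited to DNA by Krüppel-associated box zinc finger proteins and assembles a repressive complex there, and its PHD acts as a ligase for the small modifier SUMO. The largest class ends in a SPRY domain and holds many genes of the innate defence against viruses, several of which are known to be induced by interferon.

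Total counts ranged from 23615580 to 48508461 per library, and the *Trim* genes took between 0.231% and 0.290% of them. The first principal component of all tested genes held 71.7% of the variance and separated the genotypes. In controls the 14 granulosa markers summed to between 4567 and 5166 CPM and the 16 oocyte markers to between 402 and 822 CPM. In *Trim28* cKO ovaries 14 of the 16 oocyte markers and 7 of the 14 granulosa markers were lower, whereas 12 of 14 Sertoli cell and 16 of 16 macrophage markers were higher. In whole ovaries fewer cells of a type and less RNA per cell cannot be told apart. The labels name 3 mice per genotype, the p-values measure the spread between these libraries, and with 3 against 3 no exact permutation test can go below p = 0.1.

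More *Trim* genes were higher than lower in *Trim28* cKO ovaries, and many of the higher ones were neighbours on chromosome 7. Of 56 *Trim* genes with enough counts to be tested, 18 were higher (32.1%) and 9 were lower (16.1%) at an adjusted p of at most 0.05. Here and below p-values are those of edgeR, adjusted by Benjamini-Hochberg over all tested genes, and the value after ± beside a log2 fold change is its standard error. Among all 18959 tested genes 20.2% were higher and 16.8% lower, so the share of lower *Trim* genes was near that of all genes. Of the 18 higher genes, 8 came from a cluster of 10 neighbours on chromosome 7, described below. The higher share of the family thus leans on that cluster. The family was not tested as a set. The median log2 fold change (*Trim28* cKO over control) of the tested *Trim* genes was 0.192, or 0.213 without *Trim28*, beside 0.0010 over all tested genes. A log2 fold change beyond 1 was reached by 15 of the higher and 5 of the lower *Trim* genes, beside 13.7% and 8.03% of all tested genes. All 3 *Trim28* cKO libraries lay above all 3 control libraries for 19 tested *Trim* genes and below them for 11, where 26.7% and 26.1% of all tested genes did so. Among the 33 tested members of the SPRY class 14 were higher and 5 lower (median log2 fold change 0.340), and these 14 include the 8 of the cluster. The other classes together gave 4 of each among 23. The count of higher *Trim* genes depended on single libraries. It was 10 when control replicate 1 was left out, and 11 in the absence of control replicate 3 or of *Trim28* cKO replicate 2. The higher SPRY genes were then 7, 7 and 8, and 9 when *Trim28* cKO replicate 3 was left out. The 9 lower genes became 6 when control replicate 2 was left out, and also when replicate 1 or 3 of *Trim28* cKO was. Fewer of all tested genes were called with a library left out as well. Between 14.3% and 18.5% of them were then higher and between 10.4% and 13.9% lower. Of the 27 calls, 16 passed the same threshold in every alternative fit that tested the gene, namely 10 higher and 6 lower ones.

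**Figure D1:**
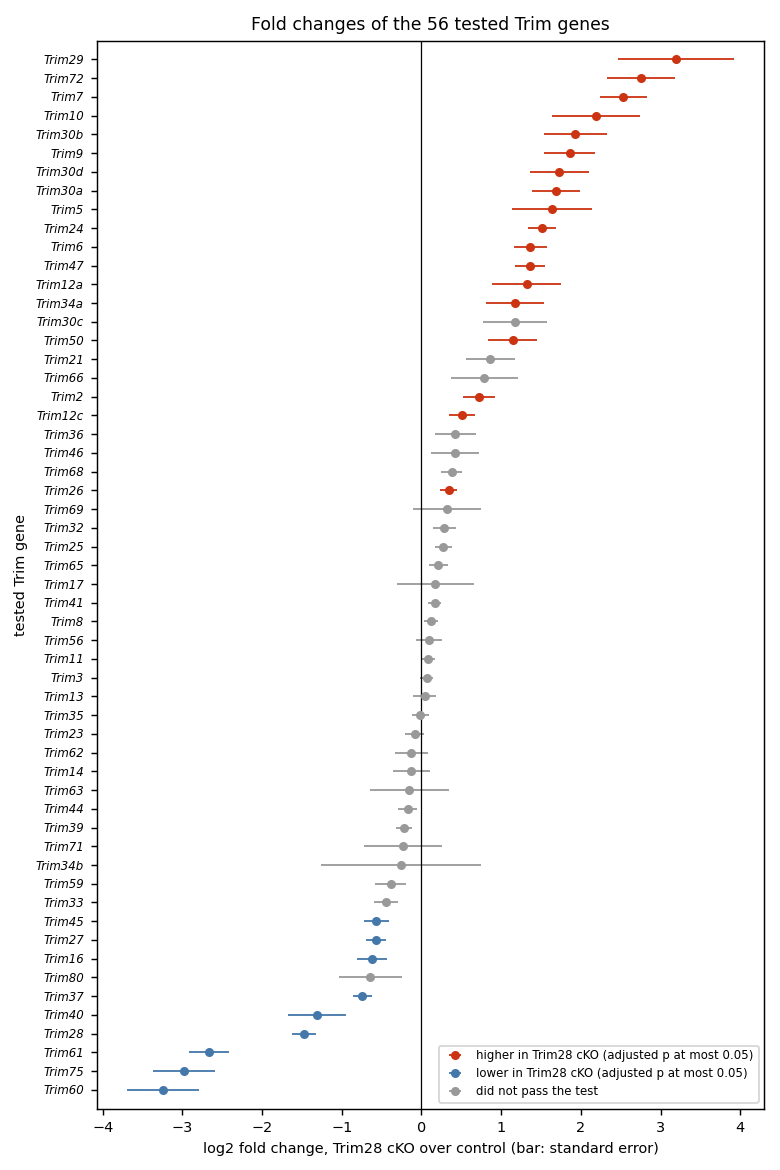
The plot shows the log2 fold change of each of the 56 tested Trim genes (x axis, Trim28 cKO over control, bars are standard errors of the edgeR fit, 3 libraries per group), sorted by size, with red for the 18 higher, blue for the 9 lower and grey for the 29 genes that did not pass the test. Values ran from -3.25 for Trim60 to 3.20 for Trim29, and the grey points between -0.64 and 1.17.

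The PHD and bromodomain class has 4 members, and its members did not move together: *Trim28* was lower, *Trim24* was higher, and *Trim33* and *Trim66* did not pass the test. *Trim28* (chromosome 7, 12999114 to 13031035 of mm10) stood in counts per library scaled to depth (CPM) at 155, 177 and 155 CPM in control and 48.7, 55.6 and 71.2 CPM in *Trim28* cKO replicates 1, 2 and 3. Values are listed here and elsewhere in the order of replicates 1, 2 and 3. The groups were far apart, with the highest *Trim28* cKO library well under the lowest control (edgeR log2 fold change -1.47 ± 0.15, adjusted p = 0.000663). Counts cover the whole gene and include cells without Cre, so the remaining reads do not measure how complete the deletion was. *Trim24* encodes a coregulator of nuclear receptors that reads histone tails through its PHD and bromodomain and shares the domain layout of TRIM28. It stood at 76.6, 63.3 and 84.9 CPM in control and 247, 229 and 168 CPM in *Trim28* cKO replicates 1, 2 and 3. Every *Trim28* cKO library thus had more *Trim24* than every control, the lowest of them being replicate 3 (edgeR log2 fold change 1.52 ± 0.18, adjusted p = 0.000951). On the CPM scale, which is not corrected for length, the mean levels of *Trim24* and *Trim28* were 75 ± 10.9 and 163 ± 12.9 (SD, n = 3) in control ovaries. They were 215 ± 41.6 and 58.5 ± 11.5 in *Trim28* cKO ovaries. *Trim33*, whose protein controls SMAD signalling downstream of TGF-beta ligands, was counted at 109, 101 and 108 CPM in controls and 62.5, 94.2 and 76.5 CPM in *Trim28* cKO ovaries. Its groups did not overlap, but its difference missed the threshold (edgeR log2 fold change -0.45 ± 0.15, adjusted p = 0.0528). It passed with library size scaling, with no filter on low counts, by the DESeq2 Wald test, by limma-voom and without *Trim28* cKO replicate 2. *Trim66*, which encodes a partner of heterochromatin proteins best known from the testis, was near the limit of detection at 0.307, 0.857 and 0.575 CPM in controls and 0.929, 1.23 and 0.794 CPM in *Trim28* cKO ovaries. Its groups overlapped (edgeR log2 fold change 0.79 ± 0.42, adjusted p = 0.186). Summed over the class, the level lay between 341 and 348 CPM in control and between 317 and 380 CPM in *Trim28* cKO ovaries, and these ranges overlapped.

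**Figure D2:**
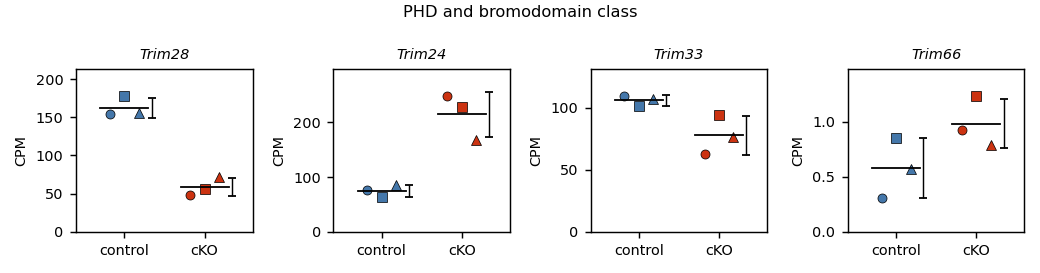
Each panel shows depth-scaled counts (CPM, y axis from 0) of 1 gene of the PHD and bromodomain class in the 3 control (blue) and 3 Trim28 cKO (red) libraries, with circles, squares and triangles for replicates 1, 2 and 3, a line for the mean and a bar for 1 SD. Trim28 lies between 155 and 177 CPM in controls and between 48.7 and 71.2 CPM in Trim28 cKO ovaries, Trim24 lies between 63.3 and 84.9 CPM and between 168 and 247 CPM, and the groups of Trim66 overlap.

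The 14 Sertoli cell markers summed to 1404, 1569 and 1122 CPM in controls and 8076, 7045 and 4909 CPM in *Trim28* cKO ovaries, and *Clu* gave 82.6% of that sum in *Trim28* cKO ovaries. Of these markers 10 were highest in *Trim28* cKO replicate 2 and 2 in replicate 1, where *Trim24* was highest. The part of that tissue change in the level of *Trim24* was not tested. A list of 14 TRIM28 corepressor genes also holds zinc finger genes that recruit TRIM28. Of these 14, 2 were higher and 5 lower, with a median log2 fold change of -0.286, beside 20.2% higher and 16.8% lower among all tested genes. The lower ones were 2 in the absence of control replicate 1 or 3, and 3 in that of *Trim28* cKO replicate 1 or 3. With a library left out between 10.4% and 13.9% of all tested genes were lower. The zinc finger gene *Zfp809*, which recruits TRIM28 to retroviral sequences, was at 52.1, 49.1 and 63.7 CPM in controls and 100.4, 98.5 and 90.8 CPM in *Trim28* cKO ovaries (edgeR log2 fold change 0.81 ± 0.12, adjusted p = 0.00244). The chromatin regulator *Morc3* also rose (edgeR log2 fold change 0.57 ± 0.13, adjusted p = 0.0124). *Zfp57*, which directs TRIM28 to imprinted genes, had the largest fall of the list, from between 43.8 and 63.8 CPM to between 17.1 and 28.0 CPM (edgeR log2 fold change -1.12 ± 0.22, adjusted p = 0.00812). *Chd3*, which encodes a remodeller that binds TRIM28, fell as well (edgeR log2 fold change -0.88 ± 0.11, adjusted p = 0.00123), and so did the heterochromatin protein genes *Cbx1* and *Cbx3* and the deacetylase gene *Hdac2*. The histone methyltransferase gene *Setdb1* did not pass the test, with 119, 121 and 123 CPM in controls and 155, 128 and 129 CPM in *Trim28* cKO ovaries.

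The largest group of higher *Trim* genes lay side by side on chromosome 7. Within 289 kb of mm10 (104218793 to 104507849) sit 10 genes placed in the SPRY class, *Trim6*, *Trim34a*, *Trim5*, *Trim12a*, *Trim34b*, *Trim12c*, *Trim30b*, *Trim30c*, *Trim30a* and *Trim30d*. Their median log2 fold change was 1.34. In *Trim28* cKO ovaries 8 of them were higher and none was lower, beside 20.2% and 16.8% of all tested genes. That count of 8 depended on single libraries and on the method, as given below. The mouse genes *Trim5*, *Trim12a* and *Trim12c* are relatives of the primate TRIM5, which blocks incoming retroviruses, and *Trim30a* encodes an interferon-induced protein that dampens inflammatory signalling in macrophages.

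Promoters of the *Trim* genes were searched for GAAA, any 2 bases (NN) and GAAA again. These letters are the core of the interferon-stimulated response element, to which interferon regulatory factors bind. Both strands were searched and overlapping matches counted. The search used the RefSeq windows of GRCm38.p6 from 250 bases before to 50 bases after each start. Such windows, 67 in all, were matched for 53 of the 68 *Trim* genes, and 9 of these genes (17%) held the element in a window. It was found in 3.99% of all 27025 genes with a window and in 3.44% of all 32851 windows. These were *Trim2*, *Trim5*, *Trim12a*, *Trim12c*, *Trim21*, *Trim26*, *Trim30a*, *Trim30d* and *Trim34a*, of which 6 lie in the chromosome 7 cluster. Of the 6, *Trim5*, *Trim12c*, *Trim30a* and *Trim34a* are printed here. Beside them stand 2 genes outside the cluster, *Trim21*, which lies nearer the centromere on chromosome 7, and *Trim26* of chromosome 17. Part of each window is printed along the strand of its gene, with the matched letters in capitals. Where the element lies on the opposite strand it reads as its reverse complement.
*Trim5* (chr7:104288136-104288165, minus strand): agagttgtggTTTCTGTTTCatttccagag
*Trim12c* (chr7:104353359-104353388, minus strand): agagttgtggTTTCTGTTTCatttccagct
*Trim30a* (chr7:104465210-104465239, minus strand): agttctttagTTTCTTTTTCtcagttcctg
*Trim34a* (chr7:104244457-104244486, plus strand): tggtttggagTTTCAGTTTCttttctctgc
*Trim21* (chr7:102565447-102565476, minus strand): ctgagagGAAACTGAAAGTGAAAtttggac
*Trim26* (chr17:36836979-36837008, plus strand): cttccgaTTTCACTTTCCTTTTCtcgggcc
The printed bases of *Trim5* also occur around the element of *Trim12a*, and those of *Trim30a* around that of *Trim30d*, at other distances from the start. *Trim21* and *Trim26* each held 2 overlapping matches, and the other windows shown held 1. The matched letters of *Trim5* and *Trim12c* are the same, and those of *Trim30a* and *Trim34a* differ from them and from each other. *Trim21* holds the letters of *Trim34a* on the opposite strand. *Trim30a* has an element in each of 2 windows, and the one printed belongs to the start farther upstream. The motif of NR5A1, the factor whose promoter drives the Cre, was also searched (CAAG followed directly by GTCA). It was found in the windows of 1 of the 53 genes (1.89%), *Trim2*, beside 1.76% of all genes with a window. A match describes these letters only and is not a measured binding site.

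Of the 9 genes with the element, 8 were higher and none was lower, with a median log2 fold change of 1.17. The other 44 genes with a matched window gave 8 higher and 8 lower genes among 35 tested and a median of 0.039. Over all tested genes 20.2% were higher. As 6 of the 9 with the element lie in the chromosome 7 cluster, element and place in the cluster cannot be told apart here. *Trim6* of the cluster, whose window did not hold the element, was higher too (log2 fold change 1.37). Outside the cluster *Trim2* and *Trim26* had log2 fold changes of 0.72 and 0.34, and *Trim21*, at 0.87, did not pass the test. Of the 9 genes 2 were called when control replicate 1 or *Trim28* cKO replicate 2 was left out. It was 3 when control replicate 3 or *Trim28* cKO replicate 3 was, 5 when control replicate 2 was and 8 when *Trim28* cKO replicate 1 was. The share of all tested genes called higher was also below 20.2% in each of these fits. With all libraries the count among the 9 genes was 4 with library size scaling or limma-voom. It was 5 with no filter on low counts or with the replicate number as a block. None was called lower under any alternative tried.

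*Trim30a* had the highest level of the cluster in each *Trim28* cKO library, with 19.8, 25.1 and 24.6 CPM in control and 45.2, 71.4 and 108 CPM in *Trim28* cKO replicates 1, 2 and 3. All *Trim28* cKO libraries exceeded all controls, and replicate 3 was the highest of them (edgeR log2 fold change 1.69 ± 0.3, adjusted p = 0.00502). Its neighbour *Trim30d* followed it with 10.9, 15.9 and 12.1 CPM in controls and 21, 48.9 and 58.9 CPM in *Trim28* cKO ovaries, again without overlap (edgeR log2 fold change 1.73 ± 0.37, adjusted p = 0.0104). *Trim30a* and *Trim30d* are close copies, and 5.98% of the 50-base stretches of *Trim30a* also occur in *Trim30d*, so that reads lying wholly within them have no unique alignment and are not counted. *Trim30b* was rare, with 0.282, 0.163 and 0.199 CPM in controls and 0.577, 1.1 and 0.836 CPM in *Trim28* cKO ovaries (edgeR log2 fold change 1.93 ± 0.4, adjusted p = 0.00923). *Trim30c* was as rare and did not pass the test although its groups did not overlap (0.282, 0.286 and 0.243 CPM in controls and 0.577, 0.388 and 0.857 CPM in *Trim28* cKO ovaries; edgeR log2 fold change 1.17 ± 0.4, adjusted p = 0.0578), and it passed without *Trim28* cKO replicate 2. *Trim6* encodes a builder of free ubiquitin chains in the interferon response, and its window did not hold the element. It was at 3.38, 3.51 and 2.83 CPM in controls and 7.34, 9.83 and 7.86 CPM in *Trim28* cKO ovaries, with a narrow spread on either side (edgeR log2 fold change 1.37 ± 0.21, adjusted p = 0.00269).

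The remaining members of the cluster were less separated. *Trim5* was at 2.25, 4.32 and 2.45 CPM in controls and 3.75, 10.1 and 14 CPM in *Trim28* cKO ovaries, and *Trim28* cKO replicate 1 lay inside the control range (edgeR log2 fold change 1.64 ± 0.5, adjusted p = 0.0387). The same library overlapped the controls for *Trim12a*, which was at 10.1, 19.5 and 10.5 CPM in controls and 15.5, 37.4 and 46.7 CPM in *Trim28* cKO ovaries (edgeR log2 fold change 1.32 ± 0.43, adjusted p = 0.0496). It also did so for *Trim34a*, at 6.64, 11.1 and 8.31 CPM in controls and 10.6, 19.3 and 28.5 CPM in *Trim28* cKO ovaries (edgeR log2 fold change 1.17 ± 0.37, adjusted p = 0.0415). *Trim12c* was more abundant and changed less, with 31.8, 25.9 and 31.6 CPM in controls and 36.4, 39.1 and 51.8 CPM in *Trim28* cKO ovaries and no overlap (edgeR log2 fold change 0.51 ± 0.16, adjusted p = 0.0431). These calls were the weakest of the cluster. That of *Trim5* was lost without control replicates 1 or 3, without *Trim28* cKO replicates 2 or 3, with no filter on low counts or by limma-voom (adjusted p between 0.0569 and 0.121 in these fits). That of *Trim12a* was lost without control replicates 1 or 3, without *Trim28* cKO replicates 2 or 3, with library size scaling, with no filter on low counts or by limma-voom (adjusted p between 0.058 and 0.169 in these fits). That of *Trim34a* was lost without control replicates 1, 2 or 3, without *Trim28* cKO replicates 2 or 3, with library size scaling, with no filter on low counts or by limma-voom (adjusted p between 0.051 and 0.127 in these fits). That of *Trim12c* was lost without control replicates 1, 2 or 3, without *Trim28* cKO replicates 2 or 3, with library size scaling, by limma-voom or with the replicate number as a block (adjusted p between 0.0522 and 0.122 in these fits). Over the whole cluster 4 genes were called when control replicate 1 or 3 or *Trim28* cKO replicate 3 was left out. It was 5 when *Trim28* cKO replicate 2, 6 when control replicate 2 and 8 when *Trim28* cKO replicate 1 was. The share of all tested genes called higher was also below 20.2% in each of these fits. With all libraries 4 were called by limma-voom and 5 with library size scaling or no filter on low counts. It was 7 with the replicate number as a block, and 8 with DESeq2 size factors or the DESeq2 Wald test.

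*Trim34b* behaved unlike its neighbours, with raw counts of 93, 4 and 106 in the control and 99, 30 and 18 in the *Trim28* cKO libraries. Both genotypes had libraries with high and with low values, and the groups overlapped (edgeR log2 fold change -0.26 ± 1.0, adjusted p = 0.861). Of its 50-base stretches 56.8% are shared with *Trim34a*, of whose stretches 39.8% are shared in turn, so the level of either gene is uncertain. Sharing with other *Trim* genes also reached 29.6% in *Trim5* and 28.8% in *Trim12c*. An antisense gene covers 23.5% of the exon length of *Trim34a*, and whether counting used strand is not stated in the sources used here.

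Interferon response genes outside the family varied between the same libraries. Of 26 tested, 19 were higher and none was lower, with a median log2 fold change of 1.17. The higher ones were 7 in the absence of control replicate 1 or 2 and 9 in that of control replicate 3, and 1 gene was lower when *Trim28* cKO replicate 3 was left out. Their summed level was 752, 753 and 855 CPM in controls and 908, 1189 and 2322 CPM in *Trim28* cKO ovaries, lowest in replicate 1 and highest in replicate 3 among the *Trim28* cKO ovaries. This order over the *Trim28* cKO libraries, replicate 3 above 2 above 1, was found in 24 of the 26 interferon response genes, beside 19.9% of all tested genes. It was also found in 6 of the 10 *Trim* genes of the cluster and 7 of the 9 with the element. Those 6 are the cluster genes that hold the element, so both counts include them. The summed level of the 10 cluster genes had this order too, with 144, 238 and 317 CPM in *Trim28* cKO replicates 1, 2 and 3 after 87.9, 106 and 95.2 CPM in the controls. Macrophage markers, of which 16 of 16 were higher, summed to 737, 702 and 622 CPM in controls and 6672, 3734 and 6180 CPM in *Trim28* cKO ovaries, with 37.9% of the sum in *Trim28* cKO ovaries from *Lyz2*. Of them 11 were highest in *Trim28* cKO replicate 3 and 5 in replicate 1, and 5 had the order of replicate 3 above 2 above 1. Lymphocyte markers, of which 5 of 14 were higher, summed to 15.5, 31.5 and 15.8 CPM in controls and 41.1, 65.2 and 112 CPM in *Trim28* cKO ovaries, and 11 of the 14 had that order. The higher ones were 2 when control replicate 1 or 3 or *Trim28* cKO replicate 2 or 3 was left out, and 8 when *Trim28* cKO replicate 1 was. The part of these cells in the levels of the *Trim* genes was not tested.

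**Figure D3:**
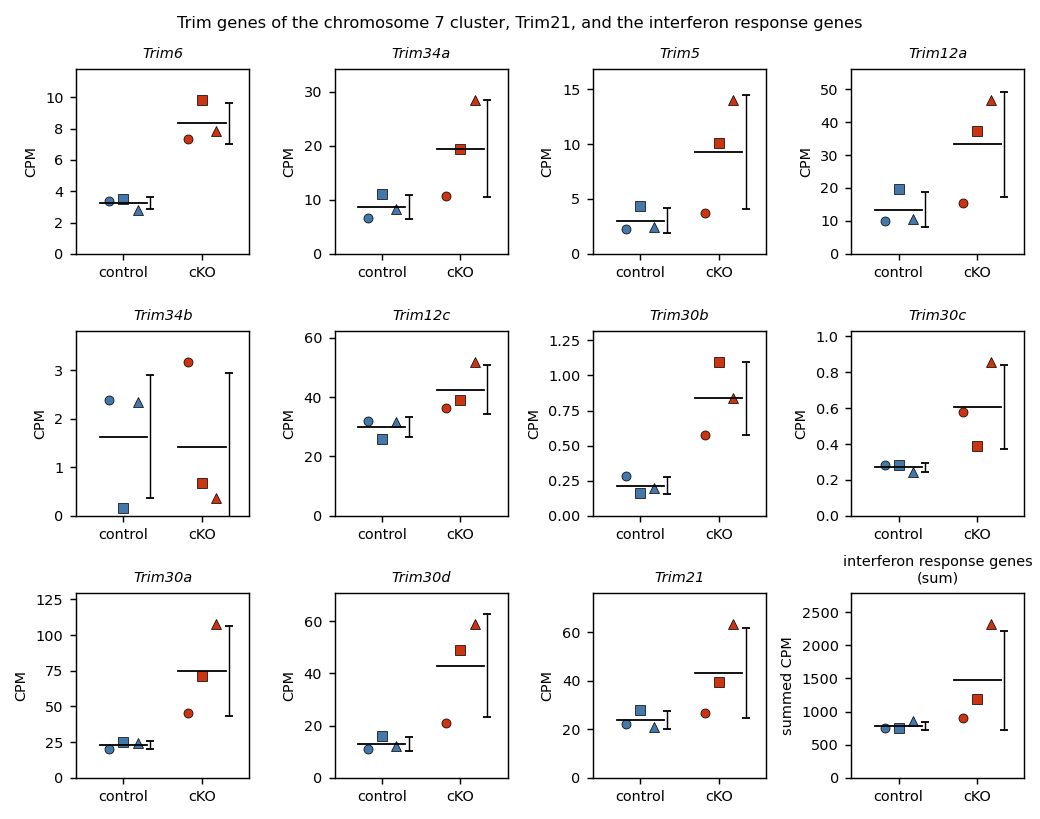
Panels show CPM (y axis from 0) of the 10 genes of the chromosome 7 cluster and of Trim21, and last the summed CPM of 26 interferon response genes, in control (blue) and Trim28 cKO (red) libraries. Circles, squares and triangles are replicates 1, 2 and 3, lines are means and bars 1 SD. The Trim28 cKO triangle is the highest red point for Trim34a, Trim5, Trim12a, Trim12c, Trim30c, Trim30a, Trim30d, Trim21 and the interferon response genes, and Trim34b alone shows high and low values in both groups.

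*Trim21*, which encodes a cytosolic antibody receptor, and *Trim68* lie beside each other on chromosome 7, outside the cluster, and neither passed the test. *Trim21* was at 22.1, 28 and 21 CPM in controls and 26.6, 39.3 and 63.4 CPM in *Trim28* cKO ovaries, with *Trim28* cKO replicate 1 inside the control range (edgeR log2 fold change 0.87 ± 0.3, adjusted p = 0.0602). It passed by the DESeq2 Wald test and without *Trim28* cKO replicate 1. *Trim68* differed less but without overlap (24.2, 21.6 and 19 CPM in controls and 26.1, 28.2 and 29.8 CPM in *Trim28* cKO ovaries; edgeR log2 fold change 0.38 ± 0.13, adjusted p = 0.0532), and it passed by the DESeq2 Wald test, by limma-voom and with a filter of 1 CPM in 3 libraries.

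Outside the chromosome 7 cluster, the SPRY class held *Trim7*, *Trim72*, *Trim10*, *Trim47*, *Trim50* and *Trim26* among its higher members. *Trim7*, whose protein binds glycogenin, the primer of glycogen synthesis, was the abundant one among those with a large change. It was at 17.8, 11.6 and 21.1 CPM in control and 94.3, 130.4 and 69.2 CPM in *Trim28* cKO replicates 1, 2 and 3. The lowest *Trim28* cKO library had several times the counts of the highest control (edgeR log2 fold change 2.53 ± 0.3, adjusted p = 0.000996). *Trim47*, a ubiquitin ligase gene on chromosome 11, was at 20.6, 21.9 and 23.9 CPM in controls and 63.7, 65.5 and 41.5 CPM in *Trim28* cKO ovaries, with tight controls and no overlap (edgeR log2 fold change 1.36 ± 0.19, adjusted p = 0.00176). Its exons share 225 bases with its neighbour *Trim65*, which did not pass the test (edgeR log2 fold change 0.21 ± 0.12, adjusted p = 0.211). *Trim72*, whose product reseals membranes in skeletal muscle, was barely counted in controls and rose in all *Trim28* cKO libraries, with 0.436, 0.408 and 0.464 CPM in controls and 4.68, 2.51 and 1.78 CPM in *Trim28* cKO ovaries (edgeR log2 fold change 2.76 ± 0.43, adjusted p = 0.00293). Of 7 tested skeletal muscle markers 4 were higher, but 1 when control replicate 1 and 2 when *Trim28* cKO replicate 3 was left out. The tested *Tnnt3*, *Mylpf* and *Tnnt1* did not pass, with log2 fold changes of -0.09, -0.25 and -0.83. The sum over all 13 listed was 8.64, 9.22 and 10.9 CPM in controls and 33.5, 28.2 and 19.8 CPM in *Trim28* cKO ovaries. Most of it in *Trim28* cKO ovaries came from *Actn3*. The defining *Myh4* was at 0 in all controls and in *Trim28* cKO replicates 1 and 3, and at 0.0228 CPM in replicate 2. An antisense gene covers 27.6% of the exon length of *Trim72*. Whether muscle cells contributed was not tested.

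*Trim50*, known from acid-secreting cells of the stomach, was at 1.95, 1.79 and 1.9 CPM in controls and 4.61, 5.29 and 2.59 CPM in *Trim28* cKO ovaries, without overlap (edgeR log2 fold change 1.14 ± 0.31, adjusted p = 0.0256). The call of *Trim50* did not hold without control replicates 1, 2 or 3, without *Trim28* cKO replicates 1 or 2 or with the replicate number as a block (adjusted p between 0.0607 and 0.0792 in these fits). *Trim10* and *Trim26* lie in a group of 5 *Trim* genes within 73 kb of chromosome 17, near the major histocompatibility complex. *Trim10*, linked to red cell maturation, was rare, with 0.128, 0.245 and 0.0663 CPM in controls and 0.801, 0.73 and 0.376 CPM in *Trim28* cKO ovaries (edgeR log2 fold change 2.19 ± 0.55, adjusted p = 0.0202). The call of *Trim10* did not hold without control replicates 1 or 3 or without *Trim28* cKO replicates 1 or 2 (adjusted p between 0.0584 and 0.0783 in these fits). *Trim26*, a ubiquitin ligase gene of antiviral signalling, was abundant and changed little, from between 185 and 214 CPM to between 227 and 267 CPM (edgeR log2 fold change 0.34 ± 0.11, adjusted p = 0.0428). The call of *Trim26* did not hold without control replicates 1 or 3, without *Trim28* cKO replicates 1, 2 or 3, with library size scaling or with the replicate number as a block (adjusted p between 0.050009 and 0.146 in these fits).

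Among the remaining classes, *Trim9*, *Trim2* and *Trim29* were higher. *Trim9* belongs to the class with a COS box and a fibronectin repeat and guides axon branching in neurons. It was at 11.6, 14.1 and 11.9 CPM in controls and 32.8, 71 and 32.2 CPM in *Trim28* cKO ovaries, with replicate 2 the highest *Trim28* cKO library and no overlap (edgeR log2 fold change 1.86 ± 0.32, adjusted p = 0.00466). The other tested members of that class, *Trim36* and *Trim46*, which bind microtubules, did not pass the test (log2 fold change 0.42 ± 0.26 for *Trim36* and 0.42 ± 0.30 for *Trim46*). *Trim2*, a neuronal ligase gene of the class with NHL repeats, had its highest level in the same library, with 80.2, 56.9 and 82 CPM in controls and 101, 151 and 109 CPM in *Trim28* cKO ovaries (edgeR log2 fold change 0.72 ± 0.2, adjusted p = 0.0282). Its call was lost without control replicates 1 or 2, without *Trim28* cKO replicate 2 or with the replicate number as a block (adjusted p between 0.0535 and 0.0746 in these fits). *Trim3*, *Trim32* and *Trim71* of the NHL class did not pass, with log2 fold changes of 0.07, 0.29 and -0.23. *Trim29*, which lacks the RING finger and is known from keratinocytes and other epithelia, had the highest log2 fold change of the family on few reads. It had raw counts of 2, 5 and 16 in the control and 104, 41 and 73 in the *Trim28* cKO libraries. These are 0.0513, 0.204 and 0.354 CPM in controls and 3.33, 0.935 and 1.53 CPM in *Trim28* cKO ovaries (edgeR log2 fold change 3.2 ± 0.73, adjusted p = 0.0134), and the groups did not overlap. Markers of the oviduct and of surface epithelium, which a dissected ovary can carry, summed to 76.4, 40.3 and 92.5 CPM in controls and 159.8, 378 and 160.4 CPM in *Trim28* cKO ovaries. Of the 5 tested, 2 were higher, *Msln* and *Upk3b*, and *Upk3b* gave 46.6% of the sum in *Trim28* cKO ovaries. *Ovgp1*, *Foxj1* and *Krt7* did not pass, with log2 fold changes of -0.66 ± 0.50, 1.22 ± 1.02 and 1.02 ± 0.39. The highest library of *Msln* and *Upk3b* was *Trim28* cKO replicate 2, as for *Trim9* and *Trim2* but not for *Trim29*. The part of such tissue in these levels was not tested.

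**Figure D4:**
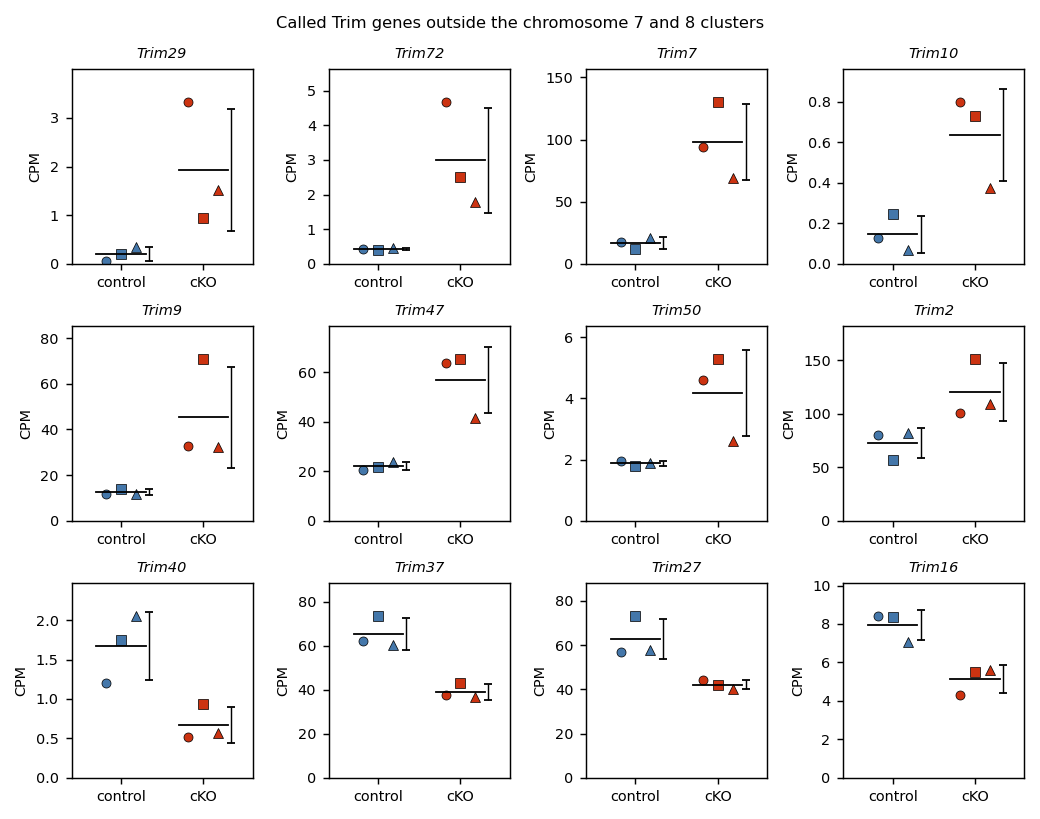
Panels show CPM (y axis from 0) of 12 called Trim genes outside the chromosome 7 and 8 clusters, 8 higher and 4 lower, in control (blue) and Trim28 cKO (red) libraries. Circles, squares and triangles are replicates 1, 2 and 3, lines are means and bars 1 SD. In no panel do the groups overlap, and the red points spread most for Trim29, Trim72 and Trim9.

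The largest falls of the family, beyond that of *Trim28* itself, came from neighbours on chromosome 8. *Trim75*, *Trim60* and *Trim61*, members of the SPRY class within 38 kb of mm10 (64980884 to 65018584), were all lower in *Trim28* cKO ovaries and passed the threshold in every alternative fit. *Trim61* was the most counted of them, with 16.9, 23.1 and 13.8 CPM in control and 3.27, 2.87 and 2.34 CPM in *Trim28* cKO replicates 1, 2 and 3. The highest *Trim28* cKO library was far below the lowest control (edgeR log2 fold change -2.66 ± 0.25, adjusted p = 0.000488). *Trim75* had 4.36, 10.4 and 5.15 CPM in controls and 0.833, 0.753 and 0.92 CPM in *Trim28* cKO ovaries (edgeR log2 fold change -2.98 ± 0.39, adjusted p = 0.00147). *Trim60* had 3.36, 6.77 and 3.23 CPM in controls and 0.641, 0.479 and 0.293 CPM in *Trim28* cKO ovaries (edgeR log2 fold change -3.25 ± 0.45, adjusted p = 0.00188). In CPM the controls differed more among themselves than the *Trim28* cKO libraries did for these genes, and control replicate 2 was the highest. *Trim60* and *Trim61* share 66 bases of exon on the same strand, and *Trim75* shares no 50-base stretch with another gene.

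Control replicate 2 also had the most RNA of oocyte markers, with a sum of 470.1, 822 and 402 CPM in controls and 92.1, 69.2 and 75.8 CPM in *Trim28* cKO ovaries. Every one of the 16 oocyte markers had its highest control level there, as had all 3 genes of the chromosome 8 cluster, beside 37.9% of all tested genes. The oocyte markers had a median log2 fold change of -2.73, and the chromosome 8 genes had one of -2.98. The 16 cell division genes were lower as well, and 1 of them had its highest control level in replicate 2. In other lists 12 of 14 lymphocyte, 10 of 16 macrophage, 9 of 14 Sertoli cell and 7 of 14 granulosa markers had it there. So did 7 of the 10 *Trim* genes of the chromosome 7 cluster, and *Trim28*, *Trim27* and *Trim37*. *Trim15*, which had too few counts to be tested, also had its highest count in control replicate 2, with raw counts of 28, 59 and 4 in the control and 0, 6 and 2 in the *Trim28* cKO libraries. Whether the *Trim* genes of chromosome 8 were expressed in oocytes was not tested in these whole ovaries.

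**Figure D5:**
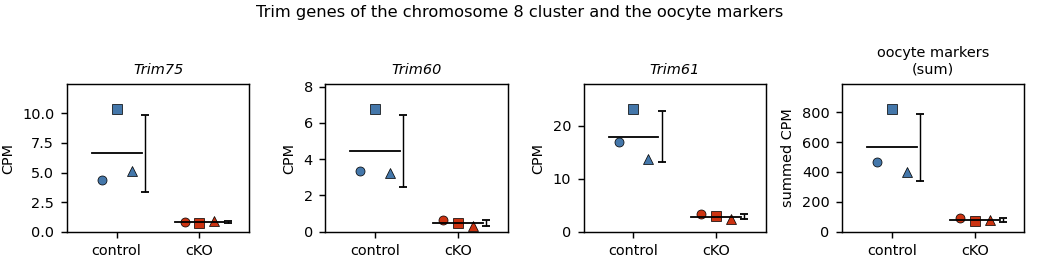
Panels show CPM (y axis from 0) of Trim75, Trim60 and Trim61 and the summed CPM of 16 oocyte markers in control (blue) and Trim28 cKO (red) libraries. Circles, squares and triangles are replicates 1, 2 and 3, lines are means and bars 1 SD. In each panel control replicate 2 is the highest point and the red points lie close together, between 0.293 and 3.27 CPM for the Trim genes.

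The other lower genes changed less. *Trim40*, a gut-expressed gene of the chromosome 17 group, was at 1.2, 1.75 and 2.06 CPM in controls and 0.513, 0.935 and 0.564 CPM in *Trim28* cKO ovaries (edgeR log2 fold change -1.31 ± 0.36, adjusted p = 0.0282). The call of *Trim40* was lost without control replicates 2 or 3 or without *Trim28* cKO replicates 1 or 3 (adjusted p between 0.0647 and 0.0872 in these fits). Its group of neighbours held both higher and lower genes. *Trim37*, a ligase gene required for centrosome control, was abundant and tightly grouped, with 62.2, 73.6 and 60.2 CPM in controls and 37.4, 43.2 and 36.6 CPM in *Trim28* cKO ovaries (edgeR log2 fold change -0.74 ± 0.12, adjusted p = 0.00337). *Trim27*, a chromatin-associated ligase gene first known from the testis, was at 56.9, 73.3 and 58 CPM in controls and 44.2, 42.1 and 40.1 CPM in *Trim28* cKO ovaries (edgeR log2 fold change -0.57 ± 0.12, adjusted p = 0.0106). The calls of *Trim37* and *Trim27* were kept in every alternative fit at that threshold. *Trim16*, which lacks the RING finger and binds galectins, fell less clearly (edgeR log2 fold change -0.62 ± 0.19, adjusted p = 0.0396). Its call was lost whichever single library was left out, with no filter on low counts or with the replicate number as a block (adjusted p between 0.0551 and 0.132 in these fits). *Trim45*, a regulator of MAP kinase signalling, fell by a similar amount (edgeR log2 fold change -0.57 ± 0.16, adjusted p = 0.0287). Its call was lost whichever single library was left out, with no filter on low counts or with the replicate number as a block (adjusted p between 0.0515 and 0.0956 in these fits). In *Trim40*, *Trim37*, *Trim27*, *Trim16* and *Trim45* every *Trim28* cKO library was below every control.

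Levels of different genes were compared per length, as the authors' size-factor scaled counts per kb of median transcript length. On this scale the highest control levels of the family were those of *Trim44*, *Trim35*, *Trim28*, *Trim41* and *Trim26*. *Trim44*, which encodes a zinc finger protein related to deubiquitinases and lacks the RING finger, had a mean level of 20643 ± 866 (SD, n = 3) in control and 18418 ± 2202 in *Trim28* cKO ovaries. *Trim35*, a regulator of pyruvate kinase, had 7600.1 ± 344 and 7572 ± 722. *Trim28* had 7463 ± 636 and 2705 ± 539, and went from the third to the eighth level of the family. *Trim41* had 5284 ± 214 and 5966 ± 128, and *Trim26* had 3972 ± 355 and 5061 ± 379. On this scale the levels of *Trim35* and *Trim28* in control ovaries differed by less than their spread. With the union of exons as length, an alternative added after the data had been seen, the highest 5 were *Trim35*, *Trim44*, *Trim28*, *Trim26* and *Trim25*, and *Trim28* went from the third level to level 12. With that length *Trim35* and *Trim28* stood farther apart in control ovaries, at 57.1 and 39.1 CPM per kb. In CPM, *Trim44* was at 290.1, 291 and 273 CPM in controls and 217, 275 and 266 CPM in *Trim28* cKO ovaries (edgeR log2 fold change -0.17 ± 0.12, adjusted p = 0.276). *Trim35* was at 275, 250.1 and 265 CPM in controls and 264, 285 and 233 CPM in *Trim28* cKO ovaries (edgeR log2 fold change -0.02 ± 0.11, adjusted p = 0.922). Groups overlapped for both. *Trim41*, a partner of protein kinase C, was at 83.1, 87.7 and 82.4 CPM in controls and 96.5, 94.4 and 92.8 CPM in *Trim28* cKO ovaries, without overlap but short of the threshold (edgeR log2 fold change 0.16 ± 0.08, adjusted p = 0.141).

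For 29 tested *Trim* genes the difference did not pass the test. Their log2 fold changes lay between -0.64 and 1.17, of which 17 were above and 12 below 0, with standard errors from 0.08 to 1.0. A miss does not show equal levels. Several of them were measured closely. *Trim3*, *Trim8*, *Trim11* and *Trim41* had standard errors of 0.08, 0.09, 0.09 and 0.08 beside log2 fold changes of 0.07, 0.12, 0.08 and 0.16. *Trim25*, the ligase gene that activates the RNA sensor RIG-I, was at 137, 141 and 164 CPM in controls and 162, 182 and 191 CPM in *Trim28* cKO ovaries (edgeR log2 fold change 0.27 ± 0.11, adjusted p = 0.0933). *Trim56*, linked to DNA sensing, was at 126, 149 and 125 CPM in controls and 112, 141 and 173 CPM in *Trim28* cKO ovaries (edgeR log2 fold change 0.09 ± 0.17, adjusted p = 0.695). The transmembrane members *Trim59* and *Trim13* had log2 fold changes of -0.38 and 0.04. *Trim63*, the muscle ligase gene and the only tested member of its class, was at most at 1.02 CPM in any library (log2 fold change -0.15 ± 0.5). *Trim14*, *Trim17*, *Trim23*, *Trim39*, *Trim62*, *Trim69* and *Trim80* made up the rest, from -0.64 for *Trim80* to 0.32 for *Trim69*. Exons of *Trim14* overlap those of *Nans* on the opposite strand over 31.3% of their length, and those of *Trim17* overlap *Hist3h2a* over 19%.

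The 12 genes with too few counts to be tested were *Trim15*, *Trim31*, *Trim38*, *Trim42*, *Trim43a*, *Trim43b*, *Trim43c*, *Trim52*, *Trim54*, *Trim55*, *Trim58* and *Trim67*. Their raw counts over all 6 libraries ran from 1 to 99, and 4 of them had at most 3. *Trim54* and *Trim55*, which with *Trim63* form the muscle class, had no count in the controls. *Trim67*, a neuronal gene, had 3, 6 and 3 counts in the control and 0, 0 and 2 in the *Trim28* cKO libraries, and *Trim38*, which tunes antiviral signalling, had 2, 3 and 5 and then 3, 7 and 7.

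A further 10 genes encode TRIM-type proteins under other symbols. Of the 8 tested, 3 were higher and 1 was lower, with a median log2 fold change of 0.03. The higher ones were 1 when control replicate 1 or 2 was left out, and the lower ones 2 when *Trim28* cKO replicate 3 was. *Mefv*, the pyrin gene of myeloid cells, was at 0.718, 0.367 and 0.31 CPM in controls and 2.11, 1.89 and 3.14 CPM in *Trim28* cKO ovaries and had the highest log2 fold change of them (edgeR log2 fold change 2.34 ± 0.42, adjusted p = 0.00504). The muscle gene *Fsd2* followed it (edgeR log2 fold change 1.66 ± 0.52, adjusted p = 0.0425). *Bspry*, the third, has a SPRY domain. *Fsd1*, which encodes a microtubule-binding protein, was lower, with 1.61, 2.65 and 0.995 CPM in controls and 0.0961, 0.274 and 0.125 CPM in *Trim28* cKO ovaries (edgeR log2 fold change -3.34 ± 0.55, adjusted p = 0.00376).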

How the data were processed

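RNA was taken from whole ovaries of 3 control and 3 *Trim28* cKO mice. Polyadenylated, strand-marked RNA was sequenced, and the authors aligned it to mm10. The submitters' processing notes name bcl2fastq 2.17.1.14, STAR 2.5.3a and HTSeq 0.6.1p1. The deposited counts hold, for each gene, reads with a unique alignment. The authors also deposited a signal, the counts divided by a DESeq2 1.16.1 size factor, the same signal per kb of the other deposited column, the median transcript length, and their own log2 fold changes (control over *Trim28* cKO) and p-values, which were not used. The signal per kb served only to compare levels between genes.

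Genes passing filterByExpr (a minimum count of 10 and a total of 15) were TMM-scaled and compared by quasi-likelihood in edgeR 4.0.16 in R 4.3.3, fitted on all tested genes, with Benjamini-Hochberg adjustment over them. The threshold for a call was an adjusted p of 0.05, and "rose" or "fell" is used only of called genes. The test was checked on simulated data. CPM are counts scaled by TMM library size, and a standard error is that of the log2 fold change. Total counts per library limit the precision of rare genes, and every pair of libraries of a group differed beyond sampling noise (the lowest chi-square, per degree of freedom, was 31.8 and the highest 96.6). Per-library values are given for the genes of the class of *Trim28*, for called genes with a log2 fold change beyond 1 and for the 5 highest control levels per length, and others are described by counts and ranges or by a value chosen after it was seen. From the other lists up to 2 of the highest and 2 of the lowest called genes are named, and further ones were chosen after their values were seen. The members, the domain classes and the gene lists were chosen with earlier results of these data known. Domain classes were assigned from general knowledge, and the domains of single proteins were not checked in their sequences.

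Exon overlaps and shared stretches of 50 bases came from GENCODE vM21, and promoters from RefSeq (GRCm38.p6). Alternatives were DESeq2 size factors in edgeR, library size scaling, no filter, limma-voom (limma 3.58.1), a filter of 1 CPM in 3 libraries, DESeq2 1.42.0 with its Wald test, each library left out, the replicate number as a block, a log2 fold change beyond 1 and an adjusted p of at most 0.01. Figures were drawn with matplotlib 3.10.9 in Python 3.11.15.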

Additional observations from a re-analysis of the deposited data

How the results depend on the processing

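The fall of *Trim28* kept its direction and its call under every alternative fit, between -1.63 and -1.36 on the log2 scale with a library left out and between -1.53 and -1.46 otherwise. The count of higher *Trim* genes lay between 10 and 16 with a library left out, and the count of lower ones between 6 and 9. In the same fits between 14.3% and 18.5% of all tested genes were higher, beside 20.2% with all libraries. At an adjusted p of at most 0.01, 8 were higher and 5 lower, and 5 of the lower ones went beyond a log2 fold change of 1. The other alternatives gave 14 to 20 higher and 7 to 11 lower genes, the extremes upward coming from the DESeq2 Wald test. The median log2 fold change of the tested *Trim* genes stayed above 0, at 0.144 with library size scaling, 0.249 with no filter on low counts, 0.150 with a filter of 1 CPM in 3 libraries and between 0.144 and 0.239 with a library left out. Library size scaling moved the median of all genes to -0.05, and no scaling moved it by more. The filters change which *Trim* genes are tested. For the other moved values the cause was not tested. No called *Trim* gene changed sign under any alternative fit. Of the genes that were not called 10 did (*Trim13*, *Trim14*, *Trim17*, *Trim23*, *Trim34b*, *Trim35*, *Trim56*, *Trim62*, *Trim63* and *Trim71*), with a *Trim35* log2 fold change between -0.0783 and 0.0652 when a library was left out, above 0 at 0.0178 without control replicate 1 and 0.0652 without *Trim28* cKO replicate 3. Depth limits the 12 untested genes and those under 1 CPM.

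The replicate numbers shared by the groups gave no sign of pairing. Correlations of deviations between libraries of the same number were -0.07, 0.06 and -0.17, and not every library correlated best with its own number. With 3 libraries per group this cannot show that the libraries were unpaired. With the replicate number as a block the log2 fold change of *Trim28* was -1.49, 14 *Trim* genes were higher and 7 lower, and their median log2 fold change was 0.191.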
